A study of Mus musculus with 12 samples.

Results

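The response of wild-type KSL cells to tumour necrosis factor alpha (TNF) was described across all genes, from the 6 arrays of a 12-array series that the labels give as wild-type: 3 of untreated cells and 3 of TNF-treated cells. KSL cells are marrow cells sorted for c-Kit and Sca-1 and against lineage markers (c-Kit+ Sca-1+ Lin-), given in the labels as hematopoietic progenitor cells. All 6 samples came from wild-type mice aged 2 to 4 months, and no strain or sex is stated. The sorted cells of both groups were kept for 24 h in RPMI with 10% fetal bovine serum, IL-6 at 20 ng/ml, IL-11 at 10 ng/ml, Flt3L at 50 ng/ml and SCF at 10 ng/ml. The treated group also received TNF alpha at 10 ng/ml from plating, and the untreated group received medium alone. The other 6 arrays, of Fancc mutant cells under the same conditions, helped to choose the probe set and to estimate the spread of each gene. Some of the alternative fits also drew on them. One value per gene was taken, from the brightest probe set that the array annotation ties to a single symbol, which gave 18193 genes. Values are log2 expression, so a difference of 1 is a doubling, and levels of different genes are not compared because probe sets differ in brightness.

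TNF binds the receptors encoded by Tnfrsf1a and Tnfrsf1b, and adaptors at the receptor activate the transcription factor NF-kB by removing its IkB inhibitors. NF-kB then induces inflammatory genes together with its own inhibitors, which close a feedback loop. In marrow, KSL cells give rise to all blood lineages, and inflammatory cytokines are known to change their output and the myeloid programme of their progeny.

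The libraries were checked before the comparison. Kit, the receptor that defines the sort, read 10.77, 10.43 and 10.44 on the untreated arrays and 10.70, 10.50 and 10.41 on the treated ones, so the groups overlapped. Ly6a, the Sca-1 gene, was not analysed here. Markers of mature lineages were mixed. All 3 CD3 genes of T cells, Cd3d, Cd3e and Cd3g, stayed at or below 4.17 on every array, the B cell gene Ms4a1 at or below 4.40, and the erythroid genes Alas2 and Hba-a1 at or below 3.63 and 3.14. Others gave clear signal on the untreated arrays. The B cell gene Cd79b read 9.91, 9.93 and 9.88, and the monocyte gene Csf1r 12.78, 12.40 and 12.72. The granulocyte genes S100a8 and Camp read 12.72, 12.90 and 12.97 and 8.92, 9.36 and 9.21. Other markers of these lineages read low there, though above the lower quartile of each array. The granulocyte gene Itgam read 4.87, 5.18 and 5.15. The B cell genes Cd79a and Pax5 read 5.68, 5.35 and 5.09 and 5.40, 5.18 and 5.15. The T cell genes Cd5 and Cd8a read 6.30, 5.44 and 5.80 and 5.62, 5.13 and 5.02. Arrays correlated across genes at 0.993 to 0.997 within the untreated group, 0.993 to 0.995 within the treated group and 0.986 to 0.989 between groups. Sex-linked transcripts were uneven. Xist, made from the inactive X chromosome of females, read 5.47, 5.06 and 12.53 on untreated replicates 1 to 3 and 12.52, 12.47 and 13.08 on the treated ones. The Y-linked gene Eif2s3y read 11.66, 11.79 and 10.46 without TNF and 11.25, 11.16 and 3.79 with it. Untreated replicate 3 and treated replicates 1 and 2 thus carried both signals, and the other arrays carried 1 of them. Untreated replicates 1 and 2 lacked the Xist signal, every treated array had it, and treated replicate 3 lacked that of Eif2s3y. Sex make-up was thus not balanced between the groups. An array with both signals reads as male and female cells together, so as more than 1 mouse. The labels state neither pooling nor whether each replicate comes from mice of its own. The p-values therefore describe only how far the samples vary, with the spread pooled over the 4 groups of 3 arrays, and some of it may be technical.

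TNF changed 913 genes in wild-type cells, 5.02% of those tested, of which 489 rose (2.69%) and 424 fell (2.33%) by limma with an adjusted p under 0.05. The 3 arrays of one group lay wholly above those of the other for 3739 genes (20.6%). The median rise was 0.96 on the log2 scale and the median fall -0.80, beside a median of -0.03 over all genes. At least 4-fold differences were found for 72 risen and 40 fallen genes, and at least 16-fold ones for 5 and 4. The share called was 0.973% among the 6064 genes with the lowest mean level, 8.84% among the 6065 in the middle and 5.24% among the 6064 with the highest. Among risen genes, 18 read below the lower quartile of every untreated array, where values are compressed, and 11 fallen genes did so on every treated array.

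How many genes passed depended on single arrays. Without untreated replicate 3 the count was 509 and without treated replicate 3 it was 474, while leaving out any other wild-type array gave 632 to 848. With Xist and Eif2s3y in the fit as covariates 410 genes passed, 373 of them among the 913, and on the 3 wild-type arrays with both signals, fitted with the mutant arrays that also had both, 39 passed. Of the 913, 387 passed in all 6 fits that left out a wild-type array (246 risen, 141 fallen), and 295 passed in those fits and with the covariates. Genes named below as risen or fallen belong to those 295 unless an exception is given, and an exception that names arrays alone does not say that the call held with the covariates. No called gene turned its sign under any other scaling, left-out array or covariate, while 5 of the 913 did when the probe sets of a gene were averaged.

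**Figure D1:**
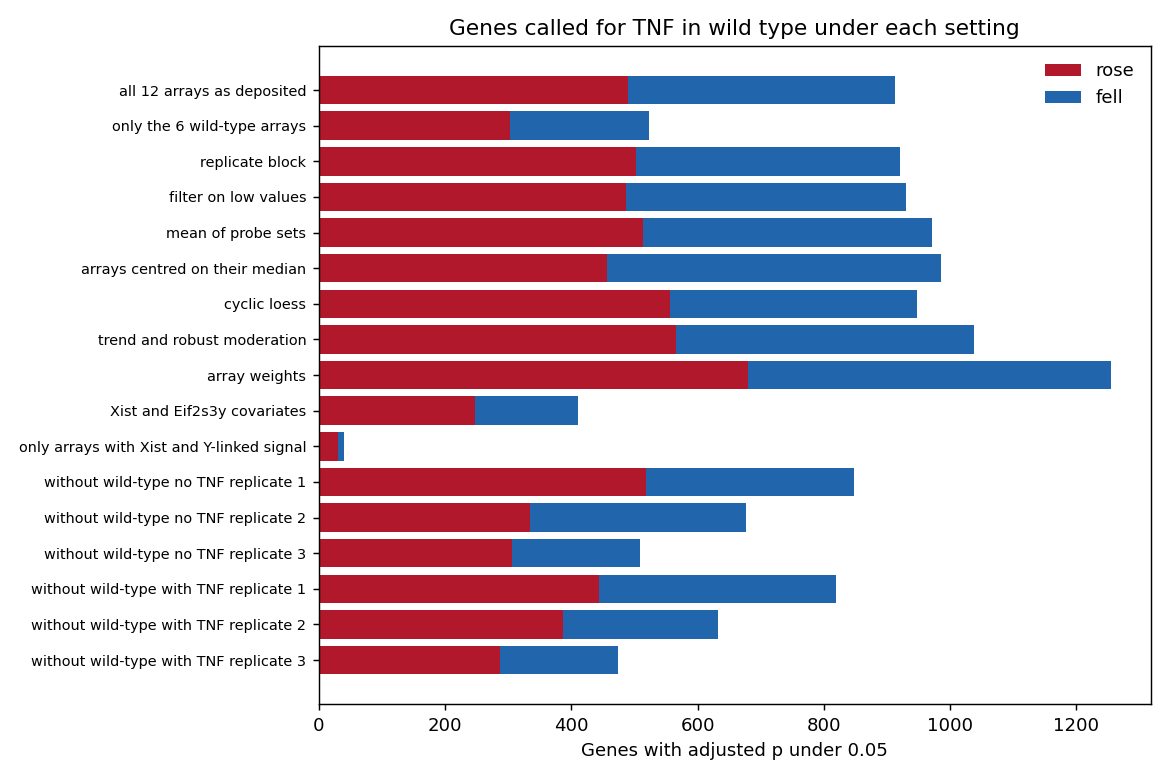
Number of genes with an adjusted p under 0.05 for TNF in wild type, split into risen (red) and fallen (blue) genes, for the fit of all 12 arrays and for each alternative. The bars run from 39 genes on arrays with both Xist and Y-linked signal to 1255 with array weights, against 913 in the fit of all arrays.

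**Figure D2:**
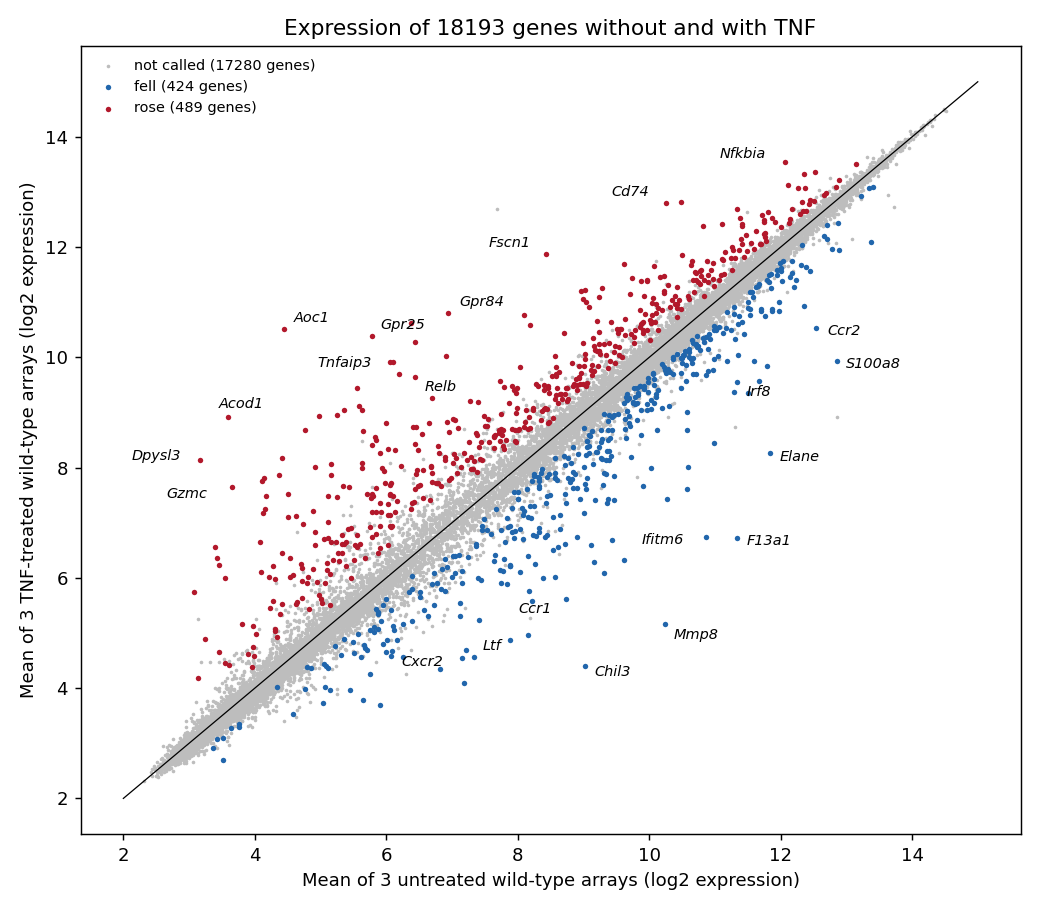
Each point is 1 of 18193 genes, with its mean over the 3 untreated wild-type arrays (x axis) and the 3 TNF-treated ones (y axis), both in log2 expression; the line marks equal values, and genes that rose (489) or fell (424) are in red and blue. Most genes lie on the line, and Aoc1 above it and Mmp8 below it stand farthest away among the labelled genes that kept their call in every fit with an array left out.

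NF-kB acts at promoters, so those of the risen feedback genes are shown first. The search used the kB site, the consensus of 10 bases that NF-kB dimers bind, on both strands of the 250 bases before each transcription start in RefSeq (GRCm38.p6), with overlapping matches merged. A gene counted if any of its promoters held a match, so genes with several starts had more chances. Of the 9 members of the NF-kB and TNF receptor lists that rose, 8 had a promoter in the table, and 5 of these 8 (62.5%) held a kB site, against 5 of 23 members that did not pass (21.7%). Relb had no entry. Over all genes the share was 1462 of 14452 (10.1%). It was 78 of 386 risen genes (20.2%), 42 of 344 fallen genes (12.2%) and 1342 of 13722 genes that did not pass (9.78%). Counted by single promoter windows, the share over all genes was 1550 of 18109 (8.56%). These shares are a description, and a match of letters is not a site in use. For each of these 5 risen genes 1 promoter with a match follows, 5′ to 3′ on the strand of the gene, with the kB matches in capitals. Nfkb2 has 3 promoters in RefSeq and Tnfaip3 2, while Nfkbia, Nfkbie and Tnip1 have 1 each. Nfkb2 is at chr19:46304487-46304736 (plus strand), Nfkbia at chr12:55492648-55492897 (minus), Nfkbie at chr17:45555450-45555699 (plus), Tnfaip3 at chr10:19015411-19015660 (minus) and Tnip1 at chr11:54962941-54963190 (minus).
Nfkb2: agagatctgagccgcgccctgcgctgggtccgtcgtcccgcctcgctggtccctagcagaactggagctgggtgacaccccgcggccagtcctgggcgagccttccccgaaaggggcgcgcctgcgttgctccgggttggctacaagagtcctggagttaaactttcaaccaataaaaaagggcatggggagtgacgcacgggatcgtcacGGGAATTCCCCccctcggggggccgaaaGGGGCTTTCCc
Nfkbia: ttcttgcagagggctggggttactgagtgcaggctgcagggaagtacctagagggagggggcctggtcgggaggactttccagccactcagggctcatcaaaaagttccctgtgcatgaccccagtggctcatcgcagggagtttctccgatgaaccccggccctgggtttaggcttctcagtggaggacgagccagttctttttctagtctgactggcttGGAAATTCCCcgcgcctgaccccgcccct
Nfkbie: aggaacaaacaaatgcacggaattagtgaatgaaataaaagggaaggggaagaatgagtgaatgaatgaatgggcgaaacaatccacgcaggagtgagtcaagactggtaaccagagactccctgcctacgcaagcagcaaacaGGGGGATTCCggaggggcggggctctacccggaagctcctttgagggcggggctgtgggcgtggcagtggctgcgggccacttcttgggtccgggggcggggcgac
Tnfaip3: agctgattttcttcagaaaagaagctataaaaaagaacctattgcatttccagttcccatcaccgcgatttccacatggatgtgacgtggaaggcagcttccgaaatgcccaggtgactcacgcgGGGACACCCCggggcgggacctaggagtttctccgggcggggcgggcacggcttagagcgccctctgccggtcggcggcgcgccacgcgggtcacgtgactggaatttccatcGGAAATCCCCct
Tnip1: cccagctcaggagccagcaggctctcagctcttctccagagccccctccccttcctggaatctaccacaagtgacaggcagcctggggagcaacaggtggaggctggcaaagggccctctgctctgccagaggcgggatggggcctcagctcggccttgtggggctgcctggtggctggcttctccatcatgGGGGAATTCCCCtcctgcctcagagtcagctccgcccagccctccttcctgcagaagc
The match of Nfkb2 that lay nearest the start began 11 bases before it, that of Tnfaip3 12, of Nfkbia 29, of Tnip1 58 and of Nfkbie 106. Nfkb2 and Tnfaip3 each held another match, which began 39 and 125 bases before the start.

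NF-kB subunits and inhibitors rose or did not pass. Of 13 measured members 5 rose and 0 fell, with a list median of 0.20 against -0.03 for all genes. Each list count here and below stands beside the 5.02% of all genes that passed (2.69% rose and 2.33% fell). Where the share of a list is near that, nothing is read from it about the list. Relb, the subunit that pairs with p52 in the alternative dimer, read 6.41, 6.31 and 6.60 on the untreated arrays and 9.63, 9.81 and 9.49 on the treated ones. The gap between its groups was many times the spread within either, and the rise was 3.20 on the log2 scale (SE 0.12, limma adjusted p = 3.8e-07). Nfkb2, which encodes the p52 precursor, read 9.20, 8.90 and 9.01 without TNF and 11.17, 10.80 and 11.04 with it, a rise of 1.97 (SE 0.12). The subunits of the classical pathway differed less: Rela read 10.11, 10.10 and 10.11 against 10.15, 10.43 and 10.14, and Rel 8.27, 7.69 and 8.13 against 8.19, 8.13 and 7.94. Neither passed, and the Rel arrays overlapped (differences of 0.13 and 0.06, adjusted p = 0.497 and 0.897).

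Among the IkB inhibitors, Nfkbie and Nfkbia, whose promoters are printed above, rose clearly. Nfkbie, which encodes IkB epsilon, read 8.27, 7.89 and 8.13 without TNF and 10.92, 10.65 and 10.73 with it, a rise of 2.67 (SE 0.20). Nfkbia, which encodes IkB alpha, went from 12.22, 11.87 and 12.10 to 13.58, 13.52 and 13.55, a rise of 1.49 (SE 0.09). Its treated arrays lay close together, and the groups of both genes were far apart. Bcl3, a nuclear IkB protein, rose by 0.68 (10.85, 10.57 and 10.74 against 11.46, 11.34 and 11.41), but did not pass with the sex-linked covariates (adjusted p = 0.0951). Nfkbiz, which encodes another nuclear IkB, was 0.73 higher and did not pass (adjusted p = 0.10). Nfkbib (0.20) and Nfkbid (-0.08), further IkB genes, did not pass either.

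Of 24 measured receptors, adaptors and feedback genes 4 rose and 0 fell (median 0.14). Tnfaip3, which encodes the ubiquitin-editing enzyme A20, read 6.57, 6.09 and 5.92 on the untreated arrays and 9.77, 9.73 and 9.60 on the treated ones, a rise of 3.51 (SE 0.16, adjusted p = 2.37e-06). Its partner Tnip1 read 10.28, 9.69 and 9.95 against 11.54, 11.22 and 11.38, a rise of 1.41 (SE 0.14). In neither did the groups come within 0.9 of each other. Birc3, a ubiquitin ligase of the receptor complex, rose by 1.58 (SE 0.08), from 10.03, 10.13 and 10.06 to 11.58, 11.67 and 11.71. Traf1, a receptor adaptor, read 5.27, 5.74 and 5.02 without TNF and 7.14, 7.57 and 8.27 with it, the widest treated spread of the 4 (rise of 2.32, SE 0.31). Birc2, the paralogue of Birc3, was 0.43 higher with overlapping arrays, and Cflar, the caspase-8 inhibitor, 0.21 higher; neither passed. The receptor genes Tnfrsf1a (-0.45, adjusted p = 0.215) and Tnfrsf1b (-0.22, adjusted p = 0.679) did not pass, and the groups of each overlapped.

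Ligands of the TNF family rose in 3 of 13 measured cases, and 0 fell (median -0.04). Ltb, the membrane anchor of the lymphotoxin heterotrimer, read 5.74, 4.26 and 6.07 without TNF and 8.88, 9.48 and 8.77 with it, a rise of 3.69 (SE 0.42). Untreated replicate 2 was the low array, and every treated array lay well above the highest untreated one. Lta, which encodes the other chain, rose by 1.18 (4.99, 5.43 and 4.86 against 5.87, 6.56 and 6.40), but not with the sex-linked covariates (adjusted p = 0.069). Tnf itself read 9.06, 8.50 and 8.36 without TNF and 9.37, 9.35 and 9.31 with it (0.70, adjusted p = 0.0225). That call was lost without untreated replicate 2 or 3, without any 1 of the treated replicates (highest adjusted p = 0.0776), and with the covariates (0.0748). Of 20 other receptors of the family 3 rose. Tnfrsf9, the costimulatory receptor 4-1BB, read 4.97, 4.98 and 4.88 against 5.83, 5.68 and 6.28 (0.99, SE 0.15). Cd40 rose by 1.89 (6.51, 7.25 and 7.04 against 8.52, 8.55 and 9.41), though not with the covariates (adjusted p = 0.0619). The death receptor gene Fas rose by 2.36 (4.92, 6.58 and 6.20 against 8.68, 8.03 and 8.06), and lost its call without treated replicate 1 or 3 (adjusted p from 0.0545 to 0.0593) and with the covariates (0.0681).

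Genes of myeloid activation made up the list with the most rises. Of 31 measured members 13 rose and 1 fell, the list median was 0.81, and 13 rose in each of the 6 fits that left out a wild-type array. Like all 51 lists, this one was chosen with earlier results of these arrays known. The direction, count or rank of any list is therefore no independent evidence. Acod1, whose enzyme makes itaconate, read 3.55, 3.83 and 3.38 without TNF and 9.13, 8.75 and 8.87 with it, a rise of 5.33 from below the lower quartile of the untreated arrays. Gpr84, a receptor for medium-chain fatty acids, read 7.35, 6.82 and 6.64 against 11.04, 10.55 and 10.80 (3.86, SE 0.21). The formyl peptide receptor gene Fpr2 read 6.11, 6.76 and 6.25 against 11.12, 10.15 and 10.61 (4.25, SE 0.51). All 3 genes had every treated array at least 3 units above every untreated one. Gpr25 read 6.93, 4.81 and 5.58 without TNF, a wide untreated spread, and 10.09, 10.36 and 10.69 with it (4.60, SE 0.42). Cp, the ferroxidase ceruloplasmin, rose by 3.97 and Ly6i by 3.91.

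Surface ligands that dampen or costimulate T cells were among the genes that rose in that list. Pdcd1lg2, which encodes PD-L2, read 6.87, 5.99 and 5.46 without TNF and 9.86, 9.90 and 9.96 with it (3.80, SE 0.36), and its treated arrays lay within 0.10 of each other. Cd274, which encodes PD-L1, read 9.05, 9.05 and 8.78 against 11.30, 11.09 and 11.24 (2.25, SE 0.13). Cd83, a marker of mature dendritic cells, rose by 2.57 and Icosl, the ICOS ligand, by 0.87. Cd86, the costimulatory ligand, was 0.56 lower with overlapping arrays and did not pass (adjusted p = 0.334). Saa3, an acute phase protein, read 10.01, 10.64 and 10.79 against 13.09, 12.52 and 12.85 (2.34, SE 0.34), Slc15a3 rose by 1.94, and Ptgs2, the inducible cyclooxygenase, by 1.79. Nos2, the inducible nitric oxide synthase, stayed between 5.03 and 5.32 on all 6 arrays. The scavenger receptor gene Msr1 fell by 2.02 (7.52, 8.53 and 8.73 against 6.63, 6.11 and 5.99), a call lost when untreated or treated replicate 2 or 3 was removed (adjusted p from 0.0547 to 0.069).

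The largest rise of the named genes was in amine metabolism. Aoc1, a diamine oxidase that breaks down histamine and putrescine, read 4.45, 4.70 and 4.19 without TNF and 10.29, 10.30 and 10.98 with it, a rise of 6.07 (67.4-fold, SE 0.22, adjusted p = 3.8e-07). It was the only 1 of the 11 measured genes in the list of arginine, polyamine and histamine metabolism to pass. Hdc, which makes histamine, was counted with the mast cell genes below, where it fell (-2.05), a call lost in 4 of the left-out fits. Odc1, which makes putrescine, was 0.15 lower and Sat1, which acetylates polyamines, 0.40 lower; neither passed. Aldehyde dehydrogenase genes gave 2 rises among 17 measured. Aldh1a1, a retinal dehydrogenase used to mark stem and progenitor cells, read 7.06, 4.88 and 4.94 without TNF and 9.59, 8.62 and 8.94 with it (3.42, SE 0.52). Its near copy Aldh1a7 rose by 2.43 from below the lower quartile, but not without treated replicate 3 (adjusted p = 0.0523), and the probe sets of the pair could share signal. Aldh2 and Adh5, which clear acetaldehyde and formaldehyde, read between 12.49 and 12.67 and between 13.42 and 13.57 on all 6 arrays.

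Cytoskeleton and guidance genes gave 11 rises and 4 falls among 41 measured (median 0.08). Dpysl3, a cytoskeletal adaptor, read 3.13, 3.16 and 3.20 without TNF and 7.62, 8.78 and 8.02 with it (4.98, SE 0.26), from below the lower quartile of the untreated arrays. Sema6d, a semaphorin, read 5.81, 5.68 and 5.20 against 9.06, 9.75 and 9.56 (3.89, SE 0.19). Fscn1, the actin bundler of dendritic cell protrusions, read 9.44, 7.70 and 8.16 against 11.48, 12.04 and 12.11 (3.44, SE 0.40). In all 3 genes the lowest treated array was more than 2 units above the highest untreated one. Myo10, a myosin of filopodia, rose by 1.04, the semaphorin receptor gene Plxnc1 by 0.94 and Marcksl1 by 0.71. Myo1e (1.63) and Ephb4 (0.92) rose, but not with the sex-linked covariates (adjusted p = 0.0615 and 0.0619). The rises of Tubb2b (1.29), Marcks (1.06) and Tpm1 (0.35) and the falls of Nrp1 (-1.90), Tubb6 (-1.56) and Vim (-0.30) were lost without treated replicate 3 and without other arrays (highest adjusted p = 0.151, 0.112, 0.0796, 0.089, 0.0986 and 0.119). The fall of Sema4a (-1.47) was lost without untreated replicate 3 (0.0508). The list had 9 rises and 0 falls without untreated replicate 3, 8 and 1 without treated replicate 2 or 3, and 6 and 1 with the covariates.

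MHC class II genes had the highest median of all 51 lists, 1.29, and 5 of 10 measured members rose while 0 fell. Cd74, the invariant chain, read 9.92, 10.31 and 10.51 without TNF and 12.32, 13.13 and 12.94 with it (2.55, SE 0.27). H2-Ab1 read 10.16, 9.60 and 9.45 against 11.23, 11.64 and 11.45 (1.70, SE 0.17), H2-Aa rose by 2.06 and H2-Eb1 by 2.40. The treated arrays were higher in every pairing of arrays for these 4 genes. Ciita, the class II transactivator, rose by 1.42 (5.34, 5.52 and 6.48 against 6.63, 7.67 and 7.30), a call lost when untreated replicate 1 or 2 or treated replicate 2 or 3 was left out (adjusted p from 0.103 to 0.115) and with the covariates (0.241). H2-DMa, which loads peptide, was 0.29 lower and did not pass. Of 16 class I and immunoproteasome genes 1 rose and 1 fell, H2-K1 (0.30) and Psmb8 (-0.30), and both calls were lost without untreated replicate 2 or 3 or any 1 of the treated replicates, H2-K1 also without untreated replicate 1 (adjusted p up to 0.149 and 0.116). B2m, the class I light chain, read between 13.75 and 13.87 on all 6 arrays.

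Class II genes are high in dendritic and B cells, so the markers of both are given beside them. Of the 3 measured dendritic markers 1 rose, and their summed signal was 9.05 to 9.64 without TNF and 9.54 to 10.21 with it (log2). Of the 4 B cell markers 0 rose, and their sum was 10.00 to 10.07 against 9.80 to 9.92. Sums of this kind, here and below, mostly follow their brightest probe sets, as Cd79b for B cells, and do not measure cell number. Zbtb46, a transcription factor of classical dendritic cells, was the marker that rose: it read 5.87, 4.86 and 5.03 without TNF and 8.40, 9.22 and 9.27 with it (3.71, SE 0.32). Itgax, which encodes CD11c, was 0.40 lower and Siglech, a plasmacytoid marker, 0.27 higher, with overlapping arrays in both. The part of other cells in the class II result was not tested. In these bulk samples more cells of a type cannot be told apart from more RNA per cell, nor fewer cells from less.

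**Figure D3:**
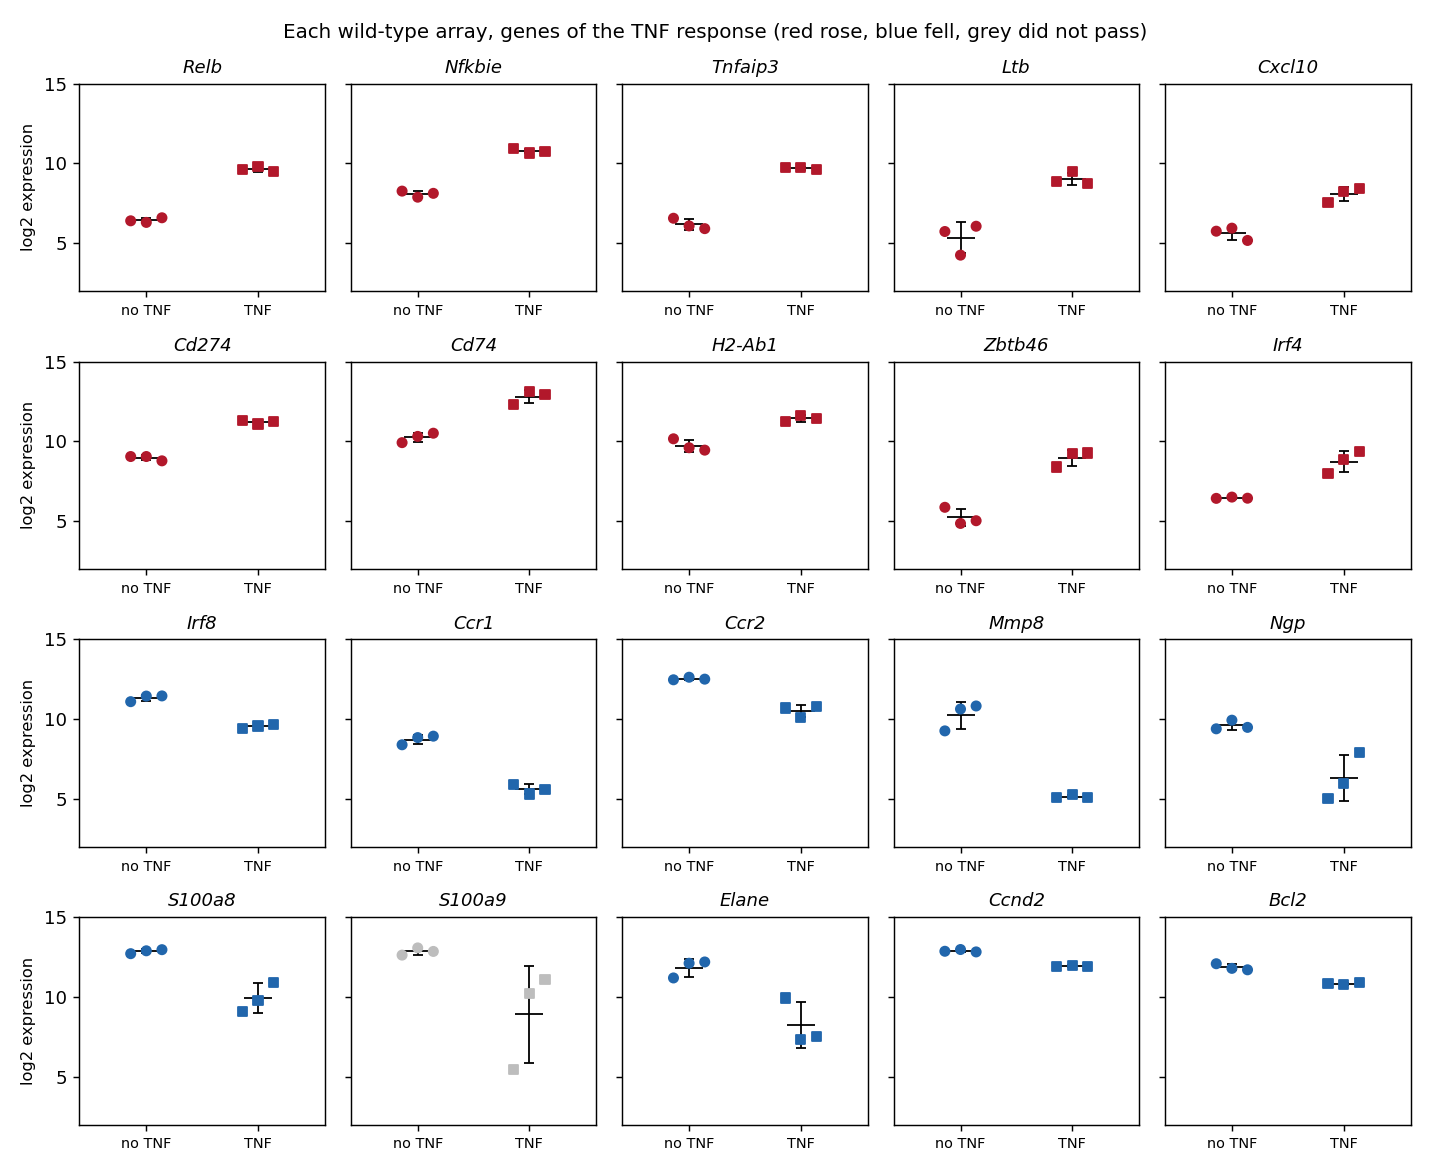
Log2 expression (y axis) of 20 genes on each untreated (circles) and TNF-treated (squares) wild-type array, from replicate 1 on the left to 3 on the right, with the mean and SD of each group of 3 as bars; red genes rose, blue genes fell and the grey gene did not pass. The groups do not overlap in any panel, and the gene that did not pass is S100a9, whose treated arrays run from 5.47 to 11.08.

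Late neutrophil genes had the lowest median of the 51 lists, which were chosen with earlier results of these arrays known. Of 22 measured secondary granule and late neutrophil genes 11 fell and 0 rose, with a list median of -1.42, and 8 to 11 fell when an array was left out. Mmp8, the neutrophil collagenase, read 9.27, 10.64 and 10.83 without TNF and 5.10, 5.29 and 5.09 with it, a difference of -5.08 on the log2 scale (33.9-fold lower, SE 0.47). Ltf, which encodes lactoferrin, read 7.19, 7.48 and 7.33 against 3.70, 4.92 and 5.07 (-2.77, SE 0.34). Ngp read 9.40, 9.94 and 9.49 against 5.04, 5.99 and 7.92 (-3.29, SE 0.60). In these genes the untreated arrays were close together apart from replicate 1 of Mmp8, and treated replicate 3 was the highest treated array for Ngp and Ltf. S100a8, a subunit of calprotectin, read 12.72, 12.90 and 12.97 against 9.12, 9.77 and 10.93 (-2.93, SE 0.42). S100a9, the other subunit, read 12.63, 13.08 and 12.86 against 5.47, 10.21 and 11.08, so the groups did not overlap, yet its difference of -3.94 (SE 1.09) did not pass (adjusted p = 0.069).

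Further members of the list differed in the size and spread of their change. Sirpb1a (-3.10), Mgam (-3.21), the antibacterial protein gene Pglyrp1 (-1.53) and Ltb4r1, a leukotriene receptor (-1.48), fell. Chil3 read 9.44, 8.93 and 8.72 without TNF and 3.34, 3.58 and 6.30 with it (-4.62, SE 1.01), a call lost without any 1 of the untreated replicates or without treated replicate 1 or 2 (adjusted p from 0.0652 to 0.0868). Camp, the cathelicidin gene, read 8.92, 9.36 and 9.21 against 4.60, 6.60 and 7.67 (-2.88), a call lost without any 1 of the untreated arrays or treated array 2 (adjusted p from 0.0561 to 0.0845). Anxa1 fell by 0.96, which was lost without untreated or treated replicate 2 or 3 or treated replicate 1 (adjusted p from 0.0709 to 0.105). Lcn2 was 1.20 lower (adjusted p = 0.272) and Mmp9 0.35 higher (adjusted p = 0.806), and neither passed. The 7 measured granulocyte markers had a summed signal of 14.79 to 15.09 without TNF and 13.22 to 13.57 with it, and 4 of them fell. Their part in the result was not tested.

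Primary granule genes are made earlier in neutrophil development. Of 10 measured 2 fell and 0 rose (median -0.54), and neither fall passed in all left-out fits. Elane, neutrophil elastase, read 11.20, 12.12 and 12.20 without TNF and 9.94, 7.33 and 7.52 with it (-3.58, SE 0.77), and treated replicate 1 stood above the other treated arrays. Prtn3, proteinase 3, read 13.17, 13.49 and 13.45 against 12.51, 11.75 and 12.04 (-1.27, SE 0.28). Both calls were lost when untreated or treated replicate 2 or 3 was removed (adjusted p from 0.0737 to 0.0987 for Elane and from 0.076 to 0.0868 for Prtn3) and with the covariates (0.108 and 0.136). Mpo, myeloperoxidase, read 13.59, 13.69 and 13.64 against 13.36, 12.80 and 12.69, and Ctsg, cathepsin G, 13.55, 13.83 and 13.77 against 13.23, 12.26 and 12.69. Their groups did not overlap, and their differences of -0.69 and -0.99 did not pass (adjusted p = 0.271 and 0.0862).

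Of 16 measured mast cell, basophil and eosinophil genes 3 fell and 0 rose (median -0.84). Mcpt8, the basophil protease, read 11.17, 11.70 and 11.63 without TNF and 9.87, 9.13 and 9.05 with it (-2.15, SE 0.43). Hdc, which makes histamine, read 8.04, 8.84 and 8.97 against 7.32, 5.96 and 6.41 (-2.05, SE 0.43), and Cd200r3 fell by 1.48. All 3 calls were lost when untreated or treated replicate 2 or 3 was removed (adjusted p from 0.0586 to 0.0728, from 0.0674 to 0.0802 and from 0.101 to 0.152). Cpa3, mast cell carboxypeptidase, was 1.33 lower and the IgE receptor gene Fcer1a 0.54 lower; both had overlapping arrays and did not pass. The 4 markers of these cells summed to 11.79 to 12.07 without TNF and 9.61 to 10.91 with it.

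Monocyte, macrophage and dendritic genes moved both ways: 3 of 26 measured rose and 6 fell (median -0.40). F13a1, a coagulation factor subunit made by early monocytes, read 11.04, 11.38 and 11.59 without TNF and 7.12, 5.92 and 7.12 with it (-4.62, SE 0.48). Vcan, which encodes the proteoglycan versican, read 8.44, 9.59 and 9.94 against 6.25, 5.96 and 6.05 (-3.23, SE 0.39). Mpeg1, a perforin-like protein of macrophages, fell by 1.12, from 11.97, 11.99 and 11.94 to 10.84, 10.78 and 10.93. All untreated arrays of these genes lay above all treated ones. Fn1, fibronectin, fell by 1.82, though not without untreated replicate 3 or treated replicate 2 (adjusted p from 0.0552 to 0.0679). Mrc1 (-1.76) and Emb (-0.44) fell, but not with the covariates (adjusted p = 0.0765 and 0.0747). Besides Zbtb46, Adgre4, an adhesion receptor of macrophages, rose by 3.64 (4.08, 4.06 and 4.20 against 8.0, 7.41 and 7.86), and the receptor tyrosine kinase gene Axl by 2.03. Csf1r, the receptor for macrophage colony-stimulating factor, overlapped between groups (12.40 to 12.78 against 12.27 to 12.94), as did Cd14 and Adgre1. The sum of the 4 monocyte markers, which mostly follows Csf1r, was 12.87 to 13.12 without TNF and 12.80 to 13.31 with it.

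Transcription factors of these lineages are given next, beside the 5.02% of all genes that passed. Irf8, needed for monocyte and dendritic development, read 11.10, 11.45 and 11.46 without TNF and 9.42, 9.58 and 9.67 with it (-1.78, SE 0.22). Its relative Irf4 went the other way, from 6.43, 6.51 and 6.44 to 8.0, 8.86 and 9.35 (2.28, SE 0.25). They were the only 2 of 8 interferon regulatory factor genes to pass. Irf1, an early target of interferon and NF-kB, was 0.28 higher without overlap and did not pass (adjusted p = 0.155). Of 25 myeloid transcription factor genes 1 rose and 3 fell. Bach2, a repressor of myeloid genes, rose by 1.20 (9.15, 9.04 and 9.26 against 10.00, 10.55 and 10.50). Gfi1, Id1 and Id2 fell by 1.26, 1.42 and 0.75, but none fell without untreated or treated replicate 2, Gfi1 and Id1 also not without replicate 3 of either group, Id1 not without treated replicate 1, and Id2 did not when untreated replicate 1 or 3 or treated replicate 1 was removed (highest adjusted p = 0.0874, 0.149 and 0.0934). Without replicate 2 of either group or untreated replicate 3 the list had 1 rise and 0 falls, and without treated replicate 1 or 3 it had 1 and 1. Spi1, which encodes PU.1, read between 10.82 and 11.01 on all 6 arrays, and Cebpa (-0.46) and Runx1 (-0.27) overlapped. Of the 6 probe sets of Runx1, tested one by one, 1 fell (differences from -0.67 to -0.27).

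Of 21 measured chemokine receptors 3 fell and 2 rose (median -0.04). Ccr1 read 8.40, 8.85 and 8.94 without TNF and 5.93, 5.32 and 5.60 with it (-3.11, SE 0.31). Ccr2, which draws monocytes from the marrow, read 12.47, 12.63 and 12.51 against 10.70, 10.11 and 10.81 (-2.0, SE 0.26). Cxcr2, the main neutrophil receptor, read 7.24, 7.16 and 7.07 against 4.40, 4.45 and 4.76 (-2.62, SE 0.19). The gap between groups exceeded 1.6 in each. Cxcr4, which holds stem cells in the niche, read between 12.69 and 12.87 on all 6 arrays. The atypical receptor gene Ackr1 rose by 2.21 (5.03, 5.91 and 5.34 against 8.15, 7.30 and 7.47). Cx3cr1 rose by 1.80, though not without untreated or treated replicate 2 (adjusted p from 0.0527 to 0.0622) or with the covariates (0.153).

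Chemokine ligands gave 5 rises and 3 falls among 34 measured. Cxcl10, the ligand of Cxcr3, read 5.76, 5.95 and 5.18 without TNF and 7.57, 8.24 and 8.43 with it (2.45, SE 0.38). Cxcl16 read 5.70, 5.73 and 5.96 against 6.96, 7.75 and 7.84 (1.72, SE 0.22). Ccl3 fell by 1.44, from 10.07, 10.23 and 10.06 to 8.57, 8.44 and 9.03, but not with the covariates (adjusted p = 0.0785). The other calls were fragile. Ccl5 rose by 1.80 and was lost without replicate 2 or 3 of either group (adjusted p from 0.0618 to 0.101), and Cxcl11 rose by 0.72 and was lost without untreated replicate 2 or 3 (from 0.0577 to 0.0653). Xcl1 (0.60), Ccl4 (-0.98) and Ccl6 (-2.24) lost their calls without any 1 of the 6 arrays (highest adjusted p = 0.125, 0.136 and 0.152). With an array left out the list had 2 to 4 rises and 1 fall. The neutrophil attractant gene Cxcl1 overlapped between groups (3.95 to 4.57 against 4.12 to 4.44), and Ccl2, a well known NF-kB target, was 0.31 lower and did not pass (adjusted p = 0.376).

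Among interleukins and colony-stimulating factors 1 of 28 rose and 3 fell. Ebi3, a subunit of IL-27 and IL-35, read 9.71, 9.01 and 9.12 without TNF and 11.09, 11.48 and 11.19 with it (1.97, SE 0.18). Il27ra, a chain of the IL-27 receptor, also rose, from 10.25, 9.68 and 9.70 to 11.50, 11.31 and 11.37 (1.51, SE 0.15). Il15, which sustains NK and memory T cells, fell by 1.93 (8.09, 7.79 and 8.25 against 6.93, 5.41 and 6.01), but not with the covariates (adjusted p = 0.0531), and the same held for Il4 (-0.62, adjusted p = 0.0595). Il10 fell by 1.05, to below the lower quartile of the treated arrays, a call kept without untreated replicate 1 and with the covariates but lost without any other wild-type array (highest adjusted p = 0.129). Il1b (0.73) and Il6 (-0.56) did not pass. Of 36 receptors for growth factors and cytokines 3 rose and 6 fell, with 2 and 3 without untreated replicate 3 or treated replicate 2. Il6st, the shared gp130 chain through which the added IL-6 and IL-11 signal, read 10.65, 10.84 and 10.86 against 10.14, 10.27 and 10.01 (-0.64, SE 0.11). Il6ra was 0.65 lower and did not pass (adjusted p = 0.0659). Il12rb1 fell by 1.25, and Il18r1 rose by 2.15 but not with the covariates (adjusted p = 0.0892). Flt3, the receptor of the added Flt3 ligand, overlapped between groups (11.60 to 11.83 against 11.47 to 12.15).

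Downstream of cytokine receptors 2 of 21 genes of the SOCS, PIM, JAK and STAT families rose and 2 fell. Jak2, the kinase of many of these receptors, read 10.90, 10.60 and 10.80 without TNF and 11.47, 11.53 and 11.70 with it (0.80, SE 0.11). Pim2, a survival kinase, read 9.01, 8.94 and 9.24 against 7.86, 7.73 and 7.86 (-1.24, SE 0.09). Socs5 rose by 0.62, a call kept without untreated replicate 1 and with the covariates but lost without any other wild-type array (highest adjusted p = 0.122). Pim1 fell by 0.31, which was lost when untreated replicate 3 or treated replicate 1 or 3 was removed (adjusted p from 0.0511 to 0.0558) and with the covariates (0.0861). Without untreated replicate 3 or treated replicate 1 or 3 the family had 1 rise and 1 fall. The feedback inhibitor genes Socs1 (-0.17) and Socs3 (-0.46) did not pass (adjusted p = 0.521 and 0.0702).

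Of 41 measured interferon-stimulated genes 5 rose and 1 fell (median 0.17), where 5.02% of all genes passed. Ifih1, a sensor of viral RNA, read 8.98, 8.36 and 8.41 without TNF and 9.43, 9.77 and 9.86 with it (1.11, SE 0.20), and was the only 1 of the 6 to pass in every left-out fit. Oas1a rose by 0.50 and was lost without untreated replicate 3 (adjusted p = 0.0601). Ifit3 rose by 0.58 and was lost without untreated replicate 3 or treated replicate 2 (from 0.0554 to 0.0567). Usp18 (0.87) was lost when untreated replicate 1 or 2 or treated replicate 2 or 3 was removed, Gbp3 (0.43) without any 1 array, and Ifi204 (-1.20) without any 1 except treated replicate 2 (highest adjusted p = 0.122, 0.131 and 0.092). The list had 2 to 3 rises when untreated replicate 2 or 3 or treated replicate 2 or 3 was removed. Gbp2 (-0.37), Irgm1 (-0.06) and Ifit1 (0.68) had overlapping arrays. Of the 7 Ifitm genes only Ifitm6 passed, reading 10.51, 11.06 and 11.04 against 6.48, 6.17 and 7.57 (-4.13, SE 0.42), while Ifitm2 read between 12.85 and 12.98 on all 6 arrays.

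**Figure D4:**
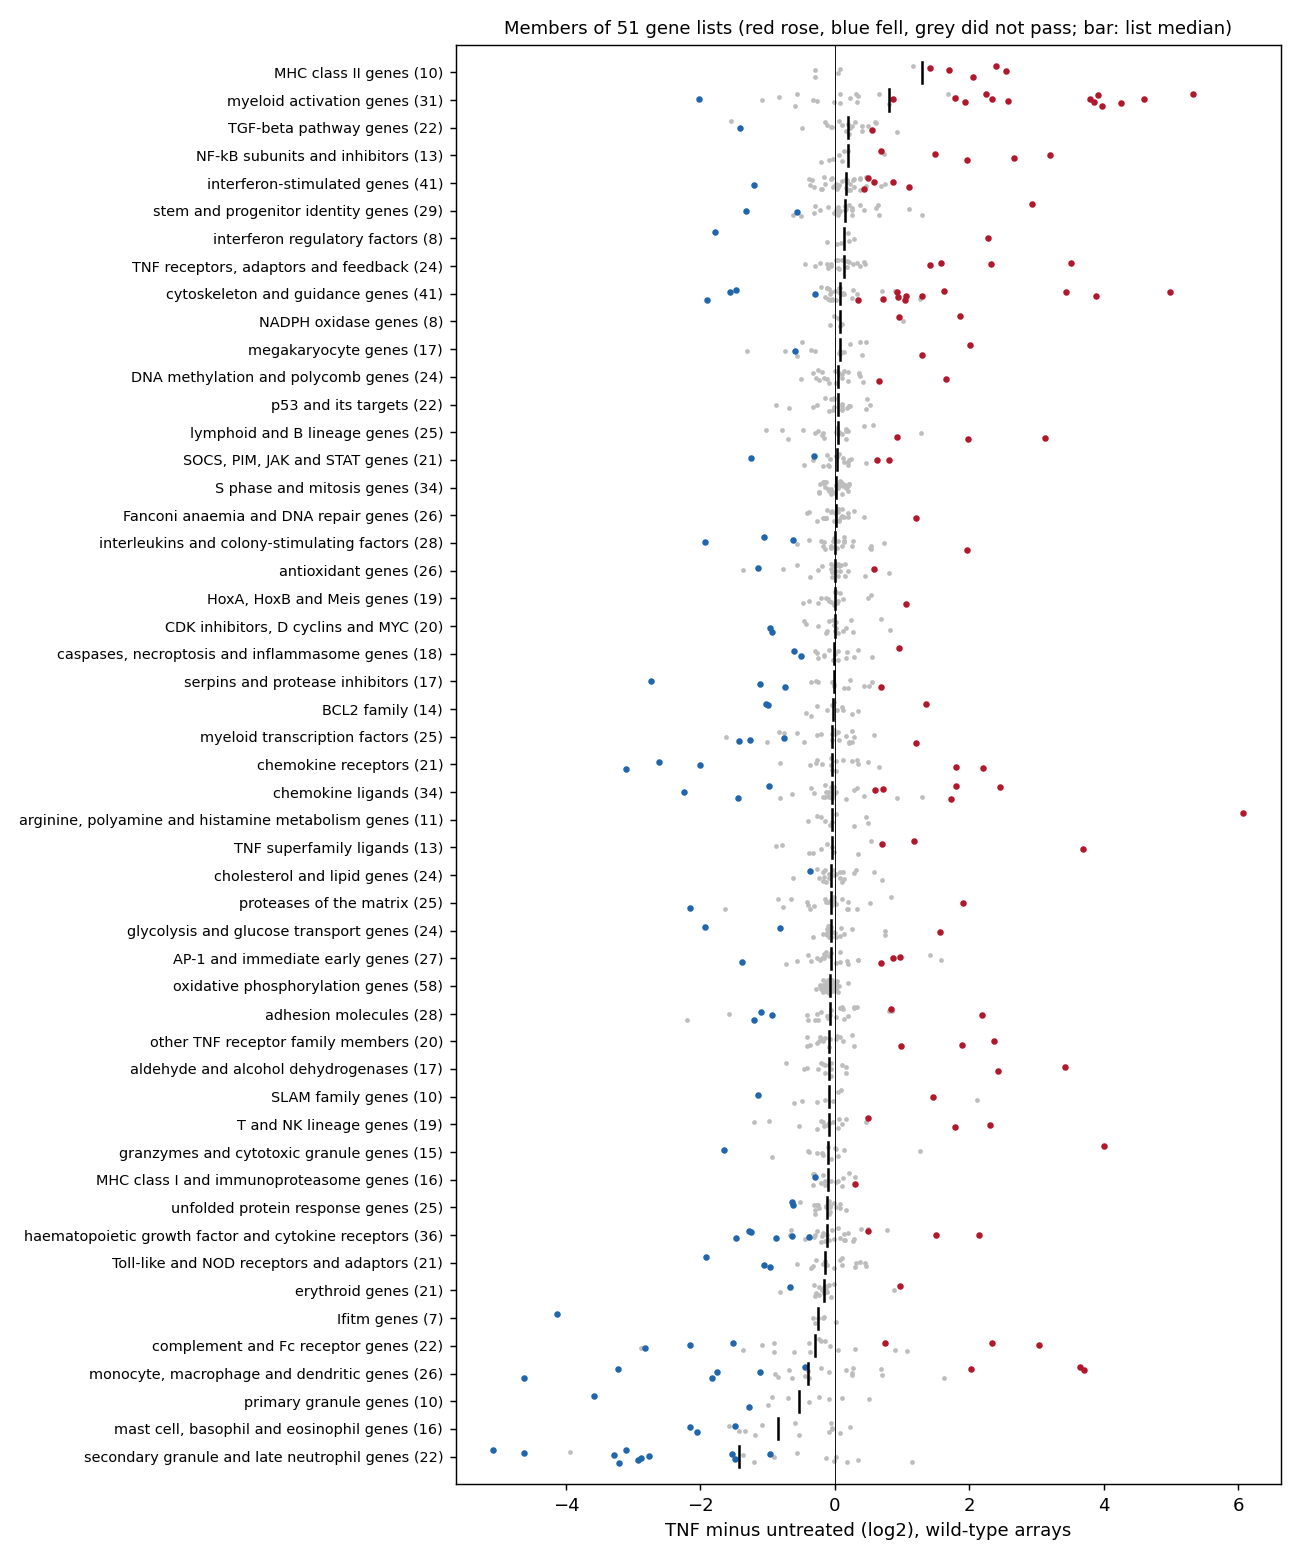
Difference between TNF-treated and untreated wild-type arrays (x axis, log2) for every measured member of 51 gene lists, ordered by list median (black bar), with the number of measured members after each name. Red points rose, blue points fell and grey points did not pass; MHC class II genes have the highest median (1.29) and secondary granule and late neutrophil genes the lowest (-1.42).

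Cell death genes changed in a few members. Bcl2, the anti-apoptotic founder of its family, read 12.09, 11.80 and 11.71 without TNF and 10.86, 10.77 and 10.90 with it (-1.03, SE 0.11). Bid, which links death receptors to mitochondria, read 12.05, 11.77 and 11.78 against 10.81, 10.88 and 10.93 (-1.0, SE 0.10). In both the groups were separated by more than 0.8. Pmaip1, which encodes the pro-apoptotic protein NOXA, rose by 1.35 (9.91, 10.87 and 10.71 against 11.64, 11.99 and 11.91), but not with the covariates (adjusted p = 0.0599). These were the 3 calls among 14 family members, and Mcl1 (-0.01) and Bcl2l1 (-0.36) did not pass. Of 18 caspase, necroptosis and inflammasome genes 1 rose and 2 fell. Casp4, the inflammatory caspase, read 10.12, 10.23 and 10.31 against 11.25, 11.04 and 11.22 (0.95, SE 0.09). Mlkl, the effector of necroptosis, fell by 0.50 and was lost without treated replicate 3 (adjusted p = 0.0535), and Casp6 fell by 0.61 and was lost without any 1 of the untreated arrays (from 0.0644 to 0.117). Casp8 (-0.16) and Ripk3 (0.04), which act at the TNF receptor, did not pass.

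The lists of S phase and mitosis genes and of p53 and its targets held no calls, where 5.02% of all genes passed. In lists this short nothing is read from that. Each gene was counted in 1 list, and some p53 targets stood in others. Among these, Cdkn1a fell, as given below, and Pmaip1 and Fas rose with the limits given for them above. Of 34 S phase and mitosis genes 0 passed in limma and 3 had an unadjusted p under 0.05, and their differences ran from -0.24 to 0.21. Mki67, the proliferation marker, read 12.40, 12.76 and 12.79 without TNF and 12.90, 12.90 and 12.78 with it, and Pcna stayed between 13.75 and 13.82. Of the 22 measured genes in the p53 list 0 passed and 6 had an unadjusted p under 0.05. Of 58 oxidative phosphorylation genes 0 passed and 4 had an unadjusted p under 0.05 (median -0.07). Of 20 cell cycle regulators 2 passed. Ccnd2, a D cyclin, read 12.87, 12.98 and 12.83 against 11.94, 11.99 and 11.92 (-0.94, SE 0.08), and Cdkn1a, which encodes the inhibitor p21, 11.31, 11.33 and 11.26 against 10.33, 10.09 and 10.59 (-0.96, SE 0.15). An activator and a brake of the cycle thus both fell, and Ccnd1 (0.00), Ccnd3 (-0.01), Myc (-0.08) and Cdkn1b (0.12) did not pass. Of 26 Fanconi anaemia and DNA repair genes Xrcc5, which encodes the Ku80 end-binding protein, was the 1 that rose (9.63, 9.23 and 9.41 against 10.59, 10.91 and 10.41, 1.21, SE 0.19). Fancc (0.09) and Fancd2 (0.00) had overlapping arrays.

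Of 29 measured genes of stem and progenitor identity 1 rose and 2 fell (median 0.15), where 5.02% of all genes passed. Cd34, the progenitor surface marker, read between 12.95 and 13.13 on all 6 arrays. Sult1a1 rose by 2.93, from 3.09, 3.65 and 3.57 to 6.10, 6.96 and 6.02, again from below the lower quartile. Cd93, a surface protein of early progenitors, fell by 0.56 (12.86, 12.65 and 12.60 against 12.13, 12.10 and 12.22). Hmga2, a chromatin protein of fetal stem cells, fell by 1.32 but not with the covariates (adjusted p = 0.0502). Procr, the stem cell marker EPCR, read 8.14, 7.50 and 7.03 without TNF and 8.71, 8.75 and 9.10 with it, without overlap, and did not pass (1.30, adjusted p = 0.0978). Mecom (0.61) and Hlf (-0.31), transcription factors of stem cells, did not pass. Prom1, which encodes the progenitor marker CD133, fell by 2.61 (8.56, 7.83 and 8.23 against 6.27, 4.82 and 5.69), though not with the covariates (adjusted p = 0.0603). Among the Hox genes Hoxa10 alone rose of 19 measured (1.06), a call lost without replicate 2 or 3 of either group (adjusted p from 0.0698 to 0.0847), and Hoxa9 (0.08) and Hoxb4 (0.02) overlapped.

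In the lists of other lineages a few genes passed, at shares above the 5.02% of all genes. These lists are short and were chosen with earlier results known, so nothing is read from the shares. Car2, a carbonic anhydrase of erythroid progenitors, read 12.38, 12.36 and 12.31 without TNF and 13.41, 13.28 and 13.28 with it (0.97, SE 0.08). Itgb3, an integrin of megakaryocytes, read 10.40, 10.19 and 9.91 against 11.46, 11.51 and 11.39 (1.29, SE 0.13), while its partner Itga2b was 0.40 higher with overlapping arrays. In the erythroid list 1 of 21 rose and 1 fell (median -0.16), and in the megakaryocyte list 2 of 17 rose and 1 fell (median 0.07). In the lymphoid and B lineage list 3 of 25 rose and 0 fell (median 0.04), and 1 of these calls passed in all left-out fits. In the T and NK lineage list 3 of 19 rose and 0 fell (median -0.09), and 0 of these calls did so. Ly6d, a marker of B-biased lymphoid progenitors, rose by 3.12 (6.21, 7.36 and 7.16 against 8.99, 11.09 and 10.01), but not with the covariates (adjusted p = 0.0584). Rag1, the recombinase of lymphoid progenitors, rose by 1.98 and was lost without replicate 3 of either group (adjusted p from 0.0527 to 0.058). Thy1 (2.31) and Cd5 (1.78) rose and were lost without untreated replicate 2 or replicate 3 of either group, Thy1 also without treated replicate 1 and Cd5 without treated replicate 2 (highest adjusted p = 0.12 and 0.154). The 6 T cell markers summed to 7.20 to 7.64 without TNF and 7.55 to 8.69 with it, 1 of them rose and 2 were below the lower quartile on all arrays; their part in these rises was not tested. Dntt, the lymphoid polymerase, overlapped between groups (12.07 to 12.30 against 11.74 to 12.58). Gzmc, a granzyme gene, read 3.83, 3.27 and 3.85 against 7.58, 7.76 and 7.61 (4.00, SE 0.28), from below the lower quartile of the untreated arrays, and Nkg7, a protein of cytotoxic granules, 11.65, 11.59 and 11.52 against 10.13, 9.99 and 9.69 (-1.65, SE 0.13). They were the only 2 of 15 cytotoxic granule genes to pass, and in opposite directions.

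Surface and sensing genes of myeloid cells gave calls in both directions. Tlr4, the endotoxin receptor, read 8.24, 8.03 and 8.22 without TNF and 6.98, 7.51 and 6.82 with it (-1.06, SE 0.18), and of 21 Toll-like and NOD receptor genes 3 fell and 0 rose. Ly86 (-1.92) and Tirap (-0.96) were the others, and were lost when untreated replicate 2 or 3 or treated replicate 1 was removed, and without replicate 3 of either group (adjusted p up to 0.0786 and 0.0529). The IgG receptor genes Fcgr3 (9.49, 10.48 and 10.84 against 8.03, 6.96 and 7.33, -2.83) and Fcgr4 (-2.16) fell. Fcer2a, the low-affinity IgE receptor, rose from 4.18, 4.28 and 3.93 to 6.86, 7.49 and 7.18 (3.04, SE 0.46). Among adhesion molecules 2 of 28 rose and 3 fell. Selplg, the selectin ligand PSGL-1, read 12.35, 12.06 and 12.21 against 11.33, 11.24 and 11.26 (-0.93, SE 0.08), and Itgb7 and Pecam1 fell by 1.10 and 1.20. Cd82, a tetraspanin, rose by 2.19 (9.25, 8.97 and 8.86 against 11.02, 11.45 and 11.18). Icam1 (0.33) and Vcam1 (0.85), textbook targets of TNF in endothelium, lay higher on every treated array and did not pass (adjusted p = 0.13 and 0.333). The 6 endothelial markers summed to 8.34 to 8.86 without TNF and 8.78 to 9.0 with it, and 0 of them passed.

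Stress, oxidase and metabolic lists differed in their calls. Of 27 AP-1 and immediate early genes 3 rose and 1 fell, and of 8 NADPH oxidase genes 2 rose and 0 fell. Of 24 glycolysis and glucose transport genes 1 rose and 2 fell. Of 26 antioxidant genes 1 rose and 1 fell, and of 24 cholesterol and lipid genes 0 rose and 1 fell. Several of these shares lay above that of all genes. The lists are short and were chosen with earlier results known, so nothing is read from the shares. Dusp1 and Ier3, immediate early genes that restrain signalling, rose by 0.97 (9.88, 9.39 and 9.38 against 10.61, 10.38 and 10.58) and 0.87 (10.59, 11.16 and 10.89 against 11.73, 11.84 and 11.68). Junb rose by 0.68 but not with the covariates (adjusted p = 0.0513), and Fosl1 fell by 1.38, which was lost when untreated replicate 1 or 3 or treated replicate 2 or 3 was left out (from 0.0549 to 0.103). Fos (-0.19) and Jun (-0.16) overlapped. Cybb, the catalytic subunit of the phagocyte NADPH oxidase, read 8.49, 9.56 and 9.64 against 10.94, 11.17 and 11.16 (1.86), and Cyba, its partner, rose by 0.96. The Cybb call was lost when untreated replicate 1 or treated replicate 2 or 3 was removed (adjusted p from 0.0558 to 0.0754) and that of Cyba without treated replicate 3 (0.0533). Sod2, a known NF-kB target, overlapped between groups (12.55 to 12.72 against 12.38 to 12.80). Cbx7, a polycomb subunit, rose from 5.98, 5.98 and 6.24 to 7.69, 7.78 and 7.70 (1.66, SE 0.10). Hk3, the myeloid hexokinase, fell by 1.93 but not with the covariates (adjusted p = 0.0663), and Slc2a1 and Ldha, the main glucose transporter and lactate dehydrogenase genes, read between 12.80 and 12.99 and between 13.61 and 13.72. Adam8, a metalloprotease of myeloid cells, fell by 2.16, and Spint1, a protease inhibitor, by 2.74 (9.13, 9.35 and 9.82 against 6.69, 6.92 and 6.46).

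The remaining genes with the highest rises and falls belong to no list. Parm1 rose by 3.85 (6.14, 6.52 and 5.52 against 8.84, 10.78 and 10.13), the glutathione transferase gene Gstt1 by 3.84 (7.41, 5.84 and 6.08 against 10.25, 10.02 and 10.58) and the heparan sulfotransferase gene Hs6st2 by 3.75 (4.08, 4.41 and 4.76 against 8.34, 7.98 and 8.19). Olfm1 fell by 2.95, from 10.73, 10.46 and 10.50 to 7.65, 7.0 and 8.18. None of the 4 had overlapping arrays. Across the 193 called genes of the lists and of the 30 genes with the highest rises and falls, 93 had several probe sets. In 0 of these 93 was another probe set called in the opposite direction, but often some probe sets did not pass. For Dpysl3 1 of 3 rose (differences from -0.11 to 4.98), and for Sema6d 1 of 4 (0.03 to 3.89). For Hs6st2 1 of 4 rose (-0.07 to 3.75), for Tnfaip3 1 of 2 (0.37 to 3.51) and for Irf4 1 of 2 (-0.03 to 2.28). All 5 probe sets of Nfkbia rose and all 7 of Ccnd2 fell. For 5 of the 193 the probe set is of the array's class that can bind related sequences, among them H2-Aa, and for 29 of the class shared by transcripts of a family or gene, so near copies cannot be fully told apart.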

How the data were processed

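Expression was measured on 12 single-colour Affymetrix mouse arrays, 3 for each of wild-type and Fancc mutant KSL cells without and with TNF. Each probe set has a log2 value that the authors computed with RMA (version not stated), per the submitters' processing notes. That the scale is log2 was judged from its range, 2.14 to 14.94. RMA corrects background and equalises the arrays, so an overall shift could not be seen, and low values are compressed. Per the labels, 5 to 15 ng of total RNA was amplified per array.

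Of 45101 probe sets 64 were controls, 34945 had 1 symbol in the platform annotation, 932 several and 9160 none; a gene took its 1-symbol probe set with the highest mean, which gave 18193 genes, 9010 of them with several. The titles gave group and replicate. In limma 3.58.1 under R 4.3.3, each gene had a mean in each of 4 groups, all 12 arrays shared the spread, and the TNF contrast was tested 2-sided, with Benjamini-Hochberg adjustment over all genes and a threshold of 0.05. The script was tested on simulated data.

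The members, the 51 gene lists (1255 genes, 1131 measured) and the alternatives were chosen with earlier results of these data known. Named genes were the 15 highest and 15 lowest changes among genes that passed in all fits with an array left out, without overlap and not predicted, and from each list up to 8 members that passed and preset key members, in part given by range. Promoters came from RefSeq (GRCm38.p6). The alternatives were the replicate block, only the 6 wild-type arrays, a filter keeping 9444 genes with at least 3 values above 7.44, the mean of probe sets, median centring, cyclic loess, trended robust moderation, array weights, a 2-fold minimum, Xist and Eif2s3y covariates, only arrays with both sex-linked signals, and leaving out each array. Precision is limited by the number of arrays; the half-width of the 95% interval was 0.27 for the median gene.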

Additional observations from a re-analysis of the deposited data

How the results depend on the processing

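Of 913 genes called for TNF, 384 differed at least 2-fold. The count fell to 523 (302 risen, 221 fallen) when only the 6 wild-type arrays were fitted, to 410 with Xist and Eif2s3y covariates and to 39 on arrays with both sex-linked signals; the fit of 6 arrays has fewer residual degrees of freedom and that of the arrays with both signals fewer arrays, and otherwise the cause was not tested. Leaving out 1 array gave 474 to 957 genes. The other settings gave 920 to 1255: a filter on low values gave 930, the mean of probe sets 971, cyclic loess 948 (556 risen, 392 fallen), median centring 986 (457 and 529), robust moderation 1038 and array weights 1255. Whether replicate numbers pair the samples could not be settled with 3 arrays per group. The deviations of same-numbered arrays correlated at 0.19, 0.20 and -0.03, and those of other pairs at -0.23 to 0.11. The replicate block called 920 genes, 795 of them among the 913. With the mean of probe sets 5 of the 913 genes had the opposite sign, and 0 did under the other settings. Median centring and cyclic loess moved the median of all genes from -0.032 to -0.055 and -0.001, so falls of a few hundredths cannot be read. Genes near the floor of the arrays have compressed differences, and 9160 probe sets without a symbol were not described.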

Other observations

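Genes outside the lists also changed; they were chosen after their values were seen. The transcription factor gene Spic, known from red pulp macrophages, read 4.05, 4.29 and 4.14 without TNF and 7.42, 7.24 and 7.09 with it, a rise of 3.09 (SE 0.41, limma adjusted p = 0.0015). Arnt2, a bHLH-PAS factor, rose by 3.68 (4.61, 3.95 and 3.86 against 7.09, 8.06 and 8.29), and Phlda1 by 3.32 (3.77, 4.60 and 4.14 against 7.88, 6.86 and 7.74). Madcam1, the ligand of an integrin that contains the Itgb7 chain, rose by 3.02 (4.24, 4.71 and 4.58 against 7.52, 7.24 and 7.84), while Itgb7 fell. All 4 risen genes read below 4.8 on every untreated array.

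Among genes that fell, Tsc22d3, which encodes the glucocorticoid-induced protein GILZ, read 8.70, 8.24 and 8.68 without TNF and 7.14, 6.91 and 7.29 with it (-1.43, SE 0.16). Ms4a4c fell by 2.53 (8.57, 8.97 and 9.80 against 6.47, 6.39 and 6.89), the difference was -2.40 for the glycoprotein gene Lrg1 (7.92, 8.46 and 8.80 against 6.36, 5.86 and 5.77), and -2.41 for Fbp1, an enzyme of gluconeogenesis (8.71, 7.79 and 8.02 against 6.19, 6.54 and 4.56). All 8 genes passed in every fit that left out a wild-type array and with the sex-linked covariates.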
